A study of Mus musculus with 16 samples.

Results

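The smooth muscle and contractile genes were followed across 4 sorted populations of mouse colon cells. The gene list held 37 symbols, and a gene was taken as measured where a probe set of the array carried that symbol and no other. By this rule 34 of the 37 were measured, out of 17097 genes with a symbol on the array. The 34 genes were covered by 69 probe sets, and 20 of them had more than 1. Tagln, Smtn and Tgfb1i1 are not analysed here: the probe set for Tagln also names Pcsk7, and no probe set used here carried the other two symbols alone.

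Smooth muscle contracts when calcium, bound to calmodulin, switches on myosin light chain kinase, which phosphorylates the regulatory light chain of myosin and lets it pull on actin. Calponin, caldesmon and tropomyosin sit on the actin filament and set how readily it is pulled, while vinculin, filamin and integrins pass the force to the membrane and the matrix. Many of these genes are switched on by serum response factor (SRF) and its cofactor myocardin. In the colon they mark the muscle layers, and several, alpha smooth muscle actin (Acta2) above all, are also used as markers of myofibroblasts and pericytes.

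All cells came from 4 C57BL/6 mice of the strain Gli1CreERT2-ZsGreen, in which tamoxifen activates a Cre recombinase driven from Gli1, a transcription factor of the Hedgehog pathway, and so turns on the green reporter ZsGreen. Every mouse received 1 mg of tamoxifen daily for 5 days by intraperitoneal injection and was killed on day 6, so all populations share genotype and treatment and no untreated mouse was measured. Colon cells without Epcam, CD45 and CD31 and with gp38 (podoplanin) on their surface were sorted into Sca1+ cells with high, dim or no reporter and Sca1- cells without reporter. Each population of each mouse was measured on 1 array, after 2 ng of RNA had been amplified, which gives 16 arrays and 4 per population. The reporter marks cells in which Cre acted and their progeny, so its brightness is not a reading of Gli1 at the time of the sort. Below, "reporter-high" and "reporter-dim" always refer to Sca1+ cells, and "reporter-negative" is given with its Sca1 status.

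Gli1 itself averaged 2611 ± 321 in reporter-high cells and 2323 ± 322 in reporter-dim cells, and it averaged 1104 ± 299 in the Sca1+ and 921 ± 318 in the Sca1- cells without reporter (array signal, SD, n = 4 each). Cells were sorted as Epcam-, yet the Epcam transcript averaged 3472 ± 2370, 10281 ± 3827, 17884 ± 3522 and 17339 ± 5049 in these populations, in the same order. Array medians lay between 661 and 686, and the highest of 23 nonspecific control probe sets on each array lay between 234 and 488. A gene at or below that control on all 4 arrays of a population is said to be at array background there. The number of arrays limits the precision, and signals are compared between populations for 1 gene and never between genes, because probe sets differ in brightness.

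Some arrays stood apart. Among Sca1- reporter-negative cells, mouse 1 had the highest of the 4 signals for 28 of the 34 contractile genes, against 28.6% of all genes. Among Sca1+ reporter-negative cells, mouse 1 was highest for 27 of the 34, against 27.4% of all genes. The same mouse was highest for 1 of 34 in reporter-high and 11 of 34 in reporter-dim cells, against 21.5% and 26.8% of all genes. In reporter-high cells mouse 3 was highest for 18 of the 34, against 26.3% of all genes. Markers of other cells moved on the 2 reporter-negative arrays of mouse 1 too. The mean log2 signal of 9 fibroblast genes was 14.14 and 14.05 on the Sca1+ and Sca1- reporter-negative arrays of mouse 1, against 13.67 to 13.73 and 13.12 to 13.30 on those of the other 3 mice. That of the epithelial genes was 13.57 and 13.29 on the same 2 arrays, against 13.92 to 14.24 and 14.03 to 14.33. On the Sca1- array of mouse 1 the pericyte genes averaged 11.32 and the endothelial genes 11.16, against 10.52 to 10.81 and 10.02 to 10.22 on the other Sca1- arrays. On its Sca1+ array they averaged 10.37 and 10.60, against 9.88 to 10.29 and 10.14 to 10.65. The part of these cells in the contractile signals was not tested. In mouse 2, the sex-linked transcripts of the 2 reporter-positive arrays did not match those of the 2 reporter-negative arrays, so counts of mice rest on the labels.

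SRF binds a short stretch of DNA called the CArG box, 2 C, then 6 A or T, then 2 G, which has the same form on both strands. Because many contractile genes are known SRF targets, the windows from 250 bases before to 50 after each gene's start were searched for it (RefSeq, build GRCm38.p6). Of 27025 genes with such a window, 1.81% held a CArG box. Of the 34 measured contractile genes, 30 had a window. Actg2, Myh11, Myocd and Itga7 had none and were not searched. Of the 30 with a window 7, or 23.3%, held a box. The genes were listed as contractile by their function, so this share describes the list. The windows of 6 of the 7 are shown because their genes behaved differently across the sorted cells. Each line gives the 250 bases before the start, 5′ to 3′ on the gene's strand, with the CArG boxes in capitals.
Actc1: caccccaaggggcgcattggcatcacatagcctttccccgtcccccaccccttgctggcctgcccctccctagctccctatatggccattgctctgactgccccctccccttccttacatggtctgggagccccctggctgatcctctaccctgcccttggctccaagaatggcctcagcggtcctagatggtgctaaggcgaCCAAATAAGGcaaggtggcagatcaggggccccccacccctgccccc
Myl9: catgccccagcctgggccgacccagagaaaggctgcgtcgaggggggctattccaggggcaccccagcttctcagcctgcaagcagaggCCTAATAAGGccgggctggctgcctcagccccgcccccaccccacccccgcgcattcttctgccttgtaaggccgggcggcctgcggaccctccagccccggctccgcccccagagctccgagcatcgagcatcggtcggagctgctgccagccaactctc
Cnn2: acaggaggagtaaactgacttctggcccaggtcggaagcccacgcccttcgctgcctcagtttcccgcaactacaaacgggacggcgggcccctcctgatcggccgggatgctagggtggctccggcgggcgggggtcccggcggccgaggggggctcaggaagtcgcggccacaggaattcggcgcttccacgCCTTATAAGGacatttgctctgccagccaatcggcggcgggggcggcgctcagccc
Vcl: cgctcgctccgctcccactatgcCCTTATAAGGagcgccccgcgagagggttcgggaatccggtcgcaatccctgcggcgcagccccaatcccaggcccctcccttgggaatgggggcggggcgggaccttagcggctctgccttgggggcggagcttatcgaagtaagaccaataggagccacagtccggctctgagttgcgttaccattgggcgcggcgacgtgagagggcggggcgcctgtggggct
Acta1: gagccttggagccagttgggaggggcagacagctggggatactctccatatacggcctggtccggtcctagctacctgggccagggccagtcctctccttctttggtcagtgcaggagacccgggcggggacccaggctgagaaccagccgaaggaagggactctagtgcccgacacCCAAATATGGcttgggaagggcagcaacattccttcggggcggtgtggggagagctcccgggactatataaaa
Srf: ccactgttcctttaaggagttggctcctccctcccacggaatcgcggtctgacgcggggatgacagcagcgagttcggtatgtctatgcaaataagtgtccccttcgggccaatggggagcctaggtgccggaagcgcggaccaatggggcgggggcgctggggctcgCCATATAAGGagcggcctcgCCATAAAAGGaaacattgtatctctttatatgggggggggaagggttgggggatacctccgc
These stretches lie at chr2:114052876-114053125 on the minus strand (Actc1), chr2:156775214-156775463 on the plus strand (Myl9), chr10:79988350-79988599 on the plus strand (Cnn2), chr14:20929148-20929397 on the plus strand (Vcl), chr8:123894776-123895025 on the minus strand (Acta1) and chr17:46556163-46556412 on the minus strand (Srf). The box begins 47 bases before the start in Actc1, 161 in Myl9, 56 in Cnn2, 227 in Vcl and 73 in Acta1, and Srf holds a pair of boxes that begin 82 and 62 bases before its start. Ldb3, which encodes a Z-disc protein of muscle, was the remaining gene with a box. A match describes these letters and is not evidence of binding. Among the 7 genes, 4 rose in reporter-high against Sca1+ reporter-negative cells (Actc1, Myl9, Cnn2 and Vcl), 1 fell (Acta1), and Ldb3 and Srf did not pass the test. In the same comparison 25 of the 34 contractile genes rose and 2 fell, while 17% of all genes rose and 13.9% fell.

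Averaged over the contractile genes, reporter-high cells had the highest mean signal of the 4 populations. Of the 34 genes, 27 had their highest population mean in reporter-high cells, while 35.9% of all genes did. The lowest mean lay in Sca1+ reporter-negative cells for 18 of the 34, against 21.2% of all genes. Averaged over the 34 genes, the log2 signal was 11.91 ± 0.15 in reporter-high cells and 11.31 ± 0.01 in reporter-dim cells, and it was 11.10 ± 0.33 in the Sca1+ and 11.45 ± 0.32 in the Sca1- cells without reporter (SD, n = 4 each). The 4 reporter-dim arrays were almost level, between 11.29 and 11.32. The wide spread in the reporter-negative cells came with mouse 1, at 11.56 and 11.94 on its Sca1+ and Sca1- arrays, against 10.83 to 11.11 and 11.28 to 11.32 in the other 3 mice. Its Sca1- array lay above the reporter-high arrays of mice 1, 2 and 4, which were at 11.75, 11.91 and 11.87. In bulk samples such as these, more contractile cells in a population and more transcript in each cell cannot be told apart.

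**Figure D1:**
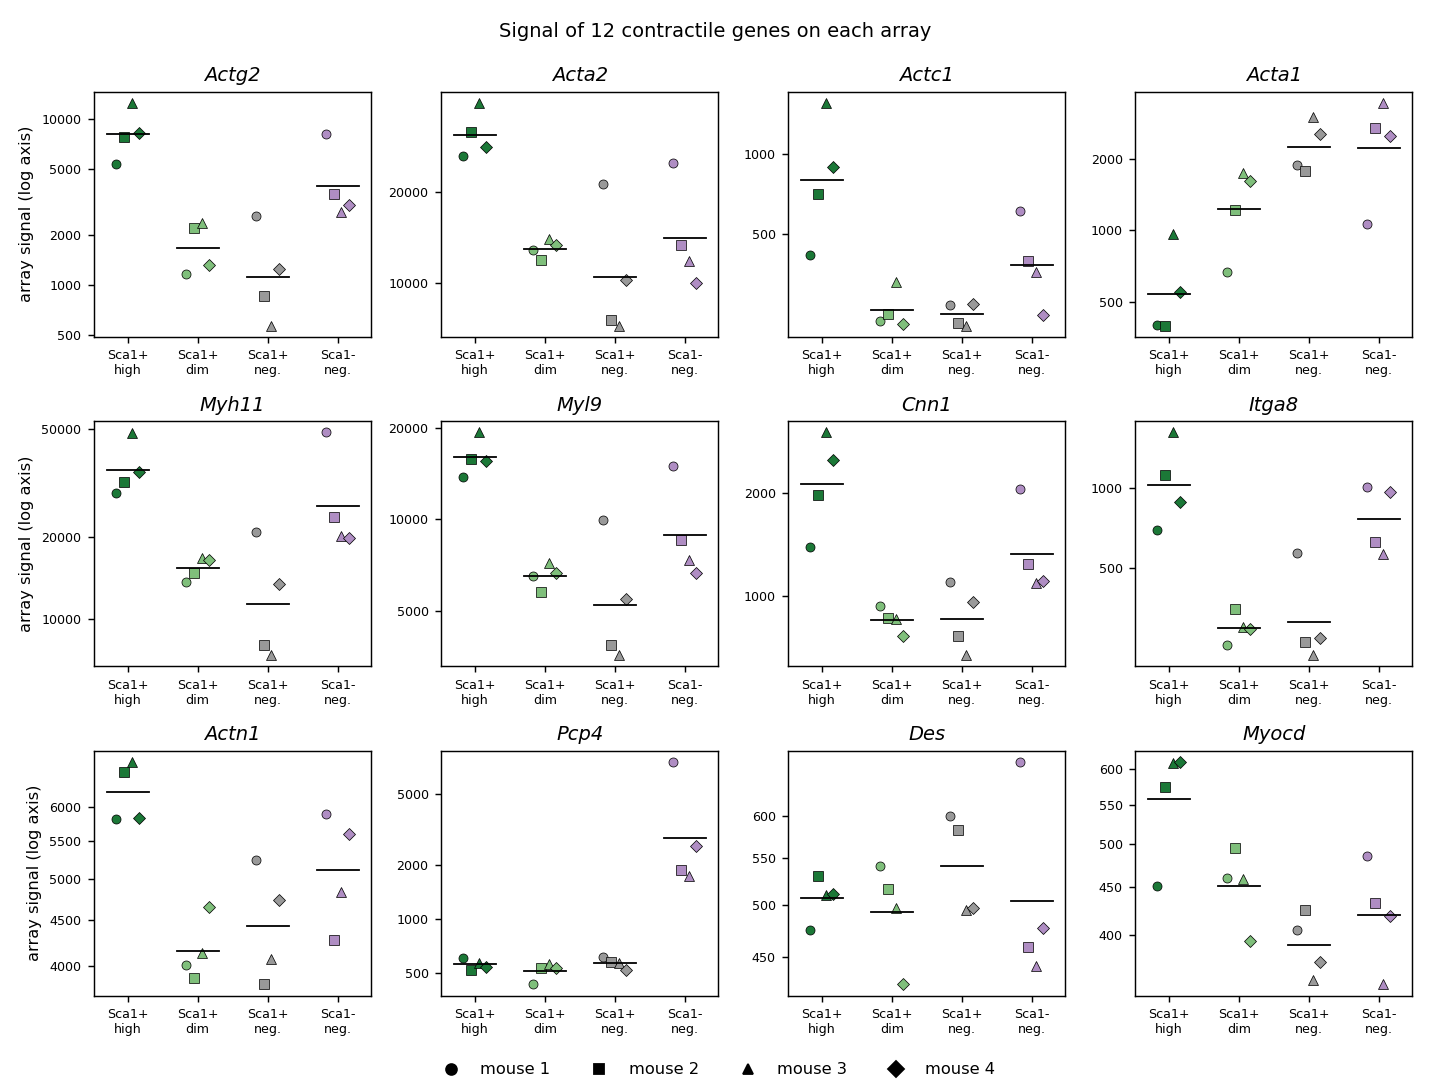
Array signal (log axis) of 12 contractile genes on each of 16 arrays, by population; symbols mark the 4 mice and bars the mean of the log2 signals. Actg2 lies between 5310 and 12423 in reporter-high cells, above every reporter-dim and Sca1+ reporter-negative array, while Pcp4 lies between 1752 and 7516 in Sca1- reporter-negative cells and at or below 620 on all other arrays.

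The first question was whether brightly labelled Sca1+ cells differed from unlabelled Sca1+ cells. With limma on log2 signals and p values adjusted over all 17097 genes, 25 of the 34 contractile genes rose and 2 fell in reporter-high against Sca1+ reporter-negative cells. Over all genes, 17% rose and 13.9% fell in this comparison, together 30.9%. The median difference of the 34 genes was 1.01 on the log2 scale, against 0.00 for all genes. For 21 of the 34 every reporter-high array lay above every Sca1+ reporter-negative array, and for 2 every one lay below; 15.3% and 14.9% of all genes did so. In the following account each difference is a log2 difference ± SE from this fit.

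Among the actins, 3 rose and 1 fell. Gamma smooth muscle actin (Actg2), the main actin of gut muscle, had signals of 5310, 7762, 12423 and 8230 in reporter-high cells of mice 1 to 4, against 2590, 856, 567 and 1242 in Sca1+ reporter-negative cells. It differed by 2.85 ± 0.44 (adjusted p = 0.000401), the largest difference of the list. All 4 reporter-high arrays lay above all Sca1+ reporter-negative ones, with mouse 1 closest. Acta2 had 26343, 31626, 39633 and 28207 in reporter-high cells, against 21294, 7492, 7190 and 10192 in Sca1+ reporter-negative cells, a difference of 1.58 ± 0.31 (adjusted p = 0.00159). The groups did not overlap, although mouse 1 again had far more in its reporter-negative cells than the other mice. Cardiac alpha actin (Actc1), which is also made in developing smooth muscle, had 419, 706, 1550 and 892 in reporter-high cells, against 271, 233, 227 and 274 in Sca1+ reporter-negative cells. The reporter-negative signals were at array background, so reporter-high cells had at least 2.06-fold more (adjusted p = 0.00121). That bound sets the mean of reporter-high cells against the highest nonspecific control of the reporter-negative arrays. Skeletal alpha actin (Acta1) ran the other way. Its signals were 402, 398, 961 and 550 in reporter-high cells, against 1872, 1769, 2995 and 2528 in Sca1+ reporter-negative cells, a difference of -2.05 ± 0.38 (adjusted p = 0.00112). All 4 reporter-high arrays lay below all Sca1+ reporter-negative arrays.

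All 5 genes of myosin and its phosphorylation rose. Smooth muscle myosin heavy chain (Myh11) had 29150, 31806, 48343 and 34627 in reporter-high cells, against 20921, 8013, 7379 and 13439 in Sca1+ reporter-negative cells, a difference of 1.64 ± 0.32 (adjusted p = 0.00147). The regulatory light chain Myl9 had 13751, 15806, 19270 and 15487 in reporter-high cells, against 9920, 3860, 3589 and 5467 in Sca1+ reporter-negative cells, a difference of 1.61 ± 0.28 (adjusted p = 0.000823). Neither gene overlapped between the populations, and mouse 1 gave the highest reporter-negative signal of both. Myosin light chain kinase (Mylk) averaged 22370 ± 4023 in reporter-high and 11127 ± 5144 in Sca1+ reporter-negative cells, a difference of 1.09 ± 0.26. The phosphatase that undoes this phosphorylation was represented by its inhibitor and its myosin-binding subunit. The inhibitor Ppp1r14a (CPI-17) had 3902, 3964, 4005 and 3980 in reporter-high cells, against 2407, 1369, 1065 and 1332 in Sca1+ reporter-negative cells, a difference of 1.43 ± 0.24 (adjusted p = 0.000673). The reporter-high arrays were nearly equal for this gene. The subunit Ppp1r12b averaged 3828 ± 584 in reporter-high and 1776 ± 371 in Sca1+ reporter-negative cells, a difference of 1.12 ± 0.20. None of its 3 other probe sets passed, with differences from -0.08 to 0.62.

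All 6 genes of proteins that sit on or nucleate the actin filament rose. Calponin 1 (Cnn1), found mainly in differentiated smooth muscle, had 1390, 1976, 2997 and 2485 in reporter-high cells, against 1102, 764, 673 and 958 in Sca1+ reporter-negative cells, a difference of 1.31 ± 0.23 (adjusted p = 0.000929). Beta tropomyosin (Tpm2) had 8174, 8900, 9569 and 8057 in reporter-high cells, against 5877, 2104, 2023 and 2131 in Sca1+ reporter-negative cells, a difference of 1.68 ± 0.32 (adjusted p = 0.00121). Both genes were free of overlap, and the reporter-negative array of mouse 1 stood far above the other 3 for Tpm2. The more widely expressed calponin 2 (Cnn2), at 8632 ± 851 in reporter-high and 5061 ± 1264 in Sca1+ reporter-negative cells, differed by 0.80 ± 0.16. Alpha tropomyosin (Tpm1) differed by 0.56 ± 0.13 (23025 ± 1579 against 15765 ± 2943), and caldesmon (Cald1) by 0.93 ± 0.27 (23283 ± 2835 against 12916 ± 5429). Leiomodin 1 (Lmod1), which nucleates actin filaments in smooth muscle, differed by 0.62 ± 0.17 (1312 ± 199 against 872 ± 236), and its arrays overlapped.

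Of the 9 genes for intermediate filaments, crosslinkers and Z-disc or dense body proteins, 6 rose. The actin crosslinker filamin A (Flna) averaged 37336 ± 2325 in reporter-high and 16657 ± 6241 in Sca1+ reporter-negative cells, a difference of 1.23 ± 0.22. Alpha-actinin 1 (Actn1), which bundles actin at adhesions and dense bodies, had 5831, 6573, 6741 and 5843 in reporter-high cells, against 5250, 3813, 4072 and 4737 in Sca1+ reporter-negative cells, a difference of 0.49 ± 0.12 (adjusted p = 0.00474). These groups did not overlap, but the gap was small. The LIM protein genes followed, Csrp1 at 1.07 ± 0.19, Pdlim3 at 1.14 ± 0.32 and Pdlim7 at 0.95 ± 0.19. For Pdlim3 the arrays overlapped, with the highest Sca1+ reporter-negative signal at 10147 and the lowest reporter-high signal at 9842. The intermediate filament protein synemin (Synm) rose by 1.13 ± 0.25. Desmin (Des), the main intermediate filament protein of muscle, did not: it had 476, 531, 511 and 512 in reporter-high cells, against 599, 583, 495 and 497 in Sca1+ reporter-negative cells, a difference of -0.09 ± 0.12 (adjusted p = 0.612). Its signals overlapped and lay near the level of the nonspecific controls in all populations. Synpo2, an actin-binding Z-disc protein, differed by 0.45 ± 0.26 (adjusted p = 0.224), and Ldb3 by 0.14 ± 0.11 (adjusted p = 0.398).

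Genes of adhesion divided. Integrin alpha 8 (Itga8), known from smooth muscle and other contractile stromal cells, had 700, 1125, 1624 and 890 in reporter-high cells, against 572, 265, 236 and 274 in Sca1+ reporter-negative cells, a difference of 1.71 ± 0.29 (adjusted p = 0.000669). The arrays did not overlap, and the reporter-negative array of mouse 1 again stood above the others. For Itga8 only 1 of the 4 Sca1+ reporter-negative arrays lay above the highest nonspecific control. Its matrix ligand nephronectin (Npnt) averaged 382 ± 34 in reporter-high and 413 ± 16 in Sca1+ reporter-negative cells and did not pass the test. Vinculin (Vcl), which ties actin to adhesions, rose by 0.51 ± 0.16, and Pgm5, a phosphoglucomutase relative found at muscle adhesions, by 1.40 ± 0.19. For Vcl the arrays overlapped, with the highest Sca1+ reporter-negative signal at 13080 and the lowest reporter-high signal at 12196. The laminin receptor integrin alpha 7 (Itga7) averaged 570 ± 24 in reporter-high and 742 ± 45 in Sca1+ reporter-negative cells, a fall of 0.38 on the log2 scale. That fall was 0.00 when arrays were scaled to their hybridization controls, a scaling that shifts the median of all genes by 0.38 in this comparison.

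Cardiac calsequestrin (Casq2), which stores calcium in the sarcoplasmic reticulum, rose by 1.20 ± 0.31, with 3996 ± 431 in reporter-high and 1981 ± 1248 in Sca1+ reporter-negative cells. Muscle creatine kinase (Ckm), an enzyme of striated muscle, had 344, 299, 353 and 359 in reporter-high cells, against 371, 364, 359 and 380 in Sca1+ reporter-negative cells, and did not pass the test (adjusted p = 0.401). Pcp4, a small calmodulin-binding protein, averaged 564 ± 38 in reporter-high and 573 ± 41 in Sca1+ reporter-negative cells. Of the regulators, Myocd rose and Srf did not pass the test. Myocardin (Myocd) had 451, 575, 610 and 611 in reporter-high cells, against 405, 425, 358 and 374 in Sca1+ reporter-negative cells, a difference of 0.52 ± 0.11 (adjusted p = 0.0032). The arrays did not overlap, but only 2 of the 4 reporter-negative arrays lay above their highest nonspecific control, and differences so close to background are too small. The other probe set of Myocd differed by 0.15 and did not pass. Srf had 5569, 5599, 7173 and 5354 in reporter-high cells, against 5852, 6915, 8541 and 8037 in Sca1+ reporter-negative cells, a difference of -0.30 ± 0.15 (adjusted p = 0.151). It was lower in all 4 mice, and its arrays overlapped between the populations.

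Between these populations epithelial transcripts ran opposite to these changes. Within reporter-high cells the array of mouse 3 had the highest mean log2 signal of both the contractile and the epithelial genes, 12.12 and 12.73. The other reporter-high arrays lay at 11.75 to 11.91 and 10.75 to 11.79. All 19 measured colon epithelium genes fell in reporter-high against Sca1+ reporter-negative cells, with a median of -2.50, and the mean log2 signal of the list was 11.58 ± 0.88 in reporter-high cells and 13.23 ± 0.49 in reporter-dim cells, against 13.95 ± 0.28 in the Sca1+ and 13.94 ± 0.45 in the Sca1- cells without reporter. With that mean as a covariate in the fit, 0 of the 34 contractile genes passed in reporter-high against Sca1+ reporter-negative cells by limma, and 8 were higher and 0 lower at an unadjusted p under 0.05, against 4.42% and 4.38% of all genes. At the adjusted threshold 0.00585% of all genes rose and 0% fell in that fit, so it left almost no call for any gene. The epithelial signal and the population move together over the arrays, so their parts cannot be told apart. Leaving out the 2 reporter-negative arrays of mouse 1, an alternative chosen after the data were seen, left the count at 25 higher and 3 lower, against 19.1% and 16.3% of all genes. Scaling the arrays to their hybridization controls gave 27 higher and 1 lower, against 60% and 5.18% of all genes.

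**Figure D2:**
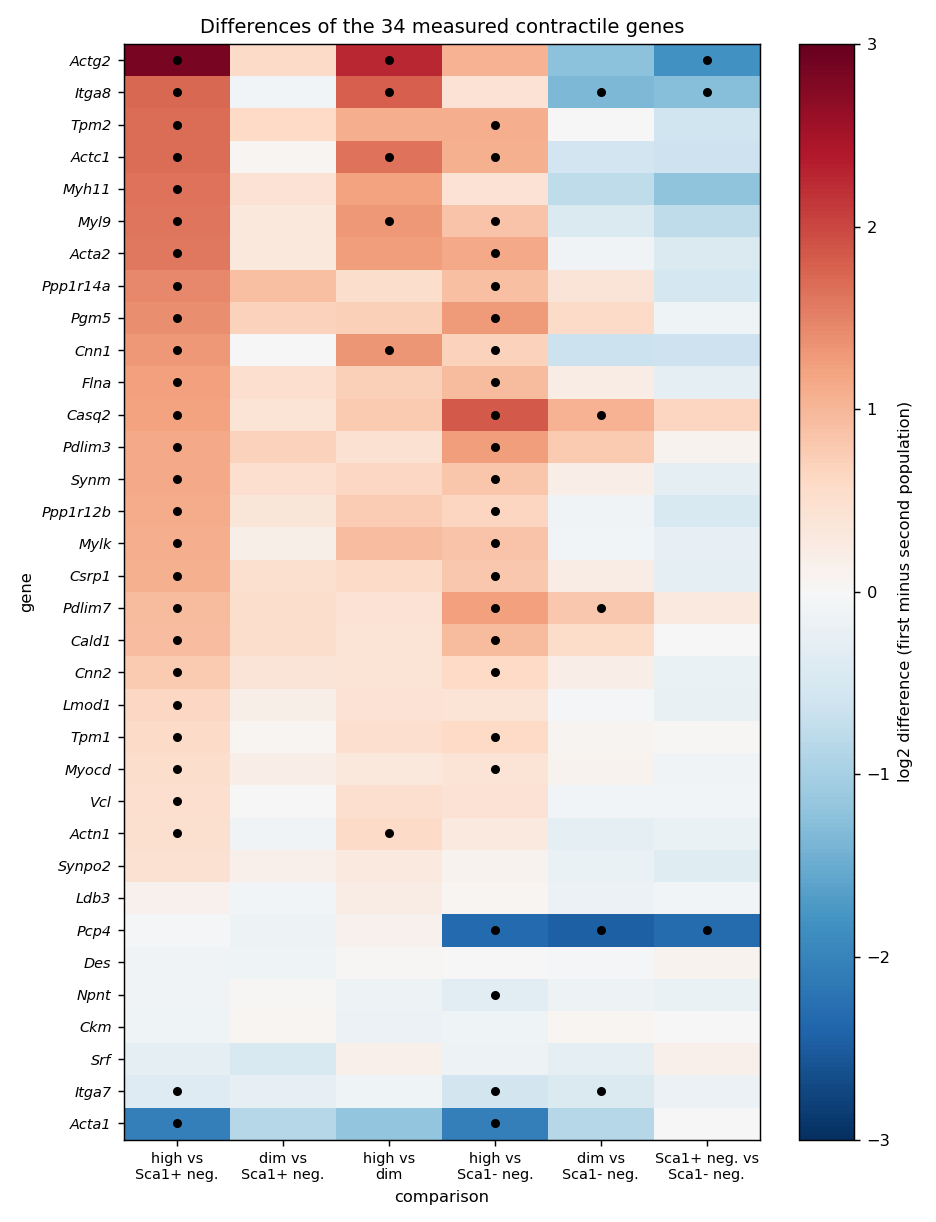
Log2 differences of the 34 measured contractile genes (rows) in the 6 comparisons (columns, the population named first minus the population named second); dots mark an adjusted p under 0.05. In reporter-high against Sca1+ reporter-negative cells 25 genes rose and 2 fell, and in reporter-dim against Sca1+ reporter-negative cells none passed.

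The second question was how the reporter-dim cells, also labelled but faintly, compared with either neighbour. Set directly against reporter-dim cells, 6 of the 34 genes rose in reporter-high cells and 0 fell by limma; at an unadjusted p under 0.05, 22 were higher and 1 lower, against 9.57% and 7.32% of all genes. At the adjusted threshold 0.485% of all genes rose and 0.93% fell, together 1.42%. The median difference was 0.52, against 0.01 for all genes. For 23 of the 34 every reporter-high array lay above every reporter-dim array and for 0 below, while 7.35% of all genes lay wholly above and 4.46% wholly below.

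The 6 genes were Actg2, Actc1, Itga8, Cnn1, Myl9 and Actn1. Actg2 had 1159, 2198, 2338 and 1313 in reporter-dim cells of mice 1 to 4, so that reporter-high cells, with the signals above, exceeded them by 2.27 ± 0.44 (adjusted p = 0.0239). Actc1 had 237, 250, 330 and 231 in reporter-dim cells, at array background, and reporter-high cells had at least 2.43-fold more (adjusted p = 0.0239). Itga8 had 258, 351, 300 and 296 in reporter-dim cells, a difference of 1.79 ± 0.29 (adjusted p = 0.0163). Between reporter-dim and Sca1+ reporter-negative cells Actg2 differed by 0.58 ± 0.44 and Itga8 by -0.07 ± 0.29, neither past the threshold, and Actc1 was at array background in both. Itga8 was near background in both, above the highest nonspecific control on 2 of 4 reporter-dim and 1 of 4 Sca1+ reporter-negative arrays. Cnn1 had 937, 861, 858 and 763 in reporter-dim cells, a difference of 1.32 ± 0.23 (adjusted p = 0.0208), and Myl9 had 6534, 5773, 7212 and 6685, a difference of 1.29 ± 0.28 (adjusted p = 0.0381). Actn1 had 4009, 3871, 4132 and 4643 in reporter-dim cells, a difference of 0.59 ± 0.12 (adjusted p = 0.0245). Acta2 narrowly missed the threshold although its arrays were separate: it had 12875, 11877, 13922 and 13304 in reporter-dim cells, all below the lowest reporter-high signal, with a difference of 1.26 ± 0.31 (adjusted p = 0.0575). Its other probe set did pass, with 1.21 ± 0.26 (adjusted p = 0.0371 over all probe sets). Myh11 had 13669, 14795, 16725 and 16524 in reporter-dim cells, a difference of 1.20 ± 0.32 (adjusted p = 0.0698).

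Of the remaining genes with values given for each array, Tpm2 had 4262, 4307, 3968 and 3787 in reporter-dim cells (adjusted p = 0.0945) and Ppp1r14a had 3453, 2456, 2713 and 2554 (adjusted p = 0.298). Both were higher in the reporter-high cells of all 4 mice. Acta1 had 669, 1220, 1741 and 1606 in reporter-dim cells, above the reporter-high cells of every mouse, and differed by -1.19 ± 0.38 (adjusted p = 0.121). Myocd had 460, 495, 459 and 394, Srf 4436, 4907, 5696 and 6472, Des 542, 517, 497 and 426, and Ckm 461, 393, 362 and 332 in reporter-dim cells. These 4 overlapped with reporter-high cells and did not pass.

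The count of 6 rested on few arrays. With the mouse as a block, 15 rose and 1 fell, while 2.82% of all genes rose and 4.67% fell. The block takes the 4 arrays labelled mouse 2 as 1 animal, although their sex-linked transcripts did not match and their deviations from the population means correlated at -0.08, and this limit holds for every value with the block. Without mouse 1 it was 19 higher and 1 lower, against 1.39% and 2.24% of all genes. Dropping only the unlabelled Sca1+ array of mouse 1 gave 11 higher, against 0.661% of all genes. Dropping only its Sca1- array gave 15 higher and 1 lower, against 2.09% and 2.78% of all genes. Neither array belongs to the 2 populations compared, but all 4 populations share 1 estimate of the spread. With only the 8 arrays compared, 20 rose and 0 fell, against 1.87% and 1% of all genes. Scaling to the hybridization controls, which shifts the median of all genes by 0.33, gave 28 higher and 0 lower, against 40.4% and 1.46% of all genes. The count was 0 without mouse 2, with 16 higher at an unadjusted p under 0.05, against 6.74% of all genes, and in that fit 0% of all genes rose or fell at the adjusted threshold. It was also 0 without mouse 4, with mouse 2 lacking its reporter-high array, and with mouse 3 or mouse 4 lacking its reporter-dim array, with 17 to 20 higher at an unadjusted p under 0.05, against 6.4% to 7.52% of all genes. In those 4 fits at most 0.0175% of all genes rose at the adjusted threshold. It was 1 with mouse 4 lacking its reporter-high array, against 0.146% of all genes, 2 without mouse 3, against 0.152%, and 3 with mouse 1 lacking its reporter-high array, against 0.0234%. Epithelial genes also differed here, 9 of 19 being lower in reporter-high than in reporter-dim cells, and with their mean as a covariate the count was 0 by limma, with 9 higher at an unadjusted p under 0.05, against 4.59% of all genes, and 0% of all genes rose or fell at the adjusted threshold.

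Between reporter-dim and Sca1+ reporter-negative cells 0 of the 34 genes passed by limma; at an unadjusted p under 0.05, 6 were higher and 3 lower, against 10.1% and 11.6% of all genes. At the adjusted threshold 0.901% of all genes rose and 0.608% fell, together 1.51%. The median difference was 0.20, against 0.00 for all genes. The arrays were separate for 3 genes that were higher in reporter-dim cells, Pdlim7, Pgm5 and Ppp1r14a, and for 2 that were lower, Acta1 and Itga7; 5.44% and 5.12% of all genes were separate in these directions. Acta2 differed by 0.32 ± 0.31 (95% interval -0.36 to 0.99), an interval that holds 0 and also a large rise. The mouse 1 reporter-negative arrays mattered most here. Without mouse 1, 16 genes rose and 0 fell, while 5.62% of all genes rose and 3.39% fell. The rise was then 0.67 ± 0.16 for Acta2 (adjusted p = 0.0265), 0.95 ± 0.09 for Tpm2 (adjusted p = 0.000356) and 1.04 ± 0.10 for Ppp1r14a (adjusted p = 0.000331). Dropping only the unlabelled Sca1+ array of mouse 1 gave 8 higher and 1 lower, against 4.32% and 3.04% of all genes, and dropping only its Sca1- array 3 higher, against 4.46%. With the mouse as a block 3 rose, Pdlim7, Pgm5 and Ppp1r14a, and 2 fell, Acta1 and Srf, while 6.18% of all genes rose and 7.78% fell.

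**Figure D3:**
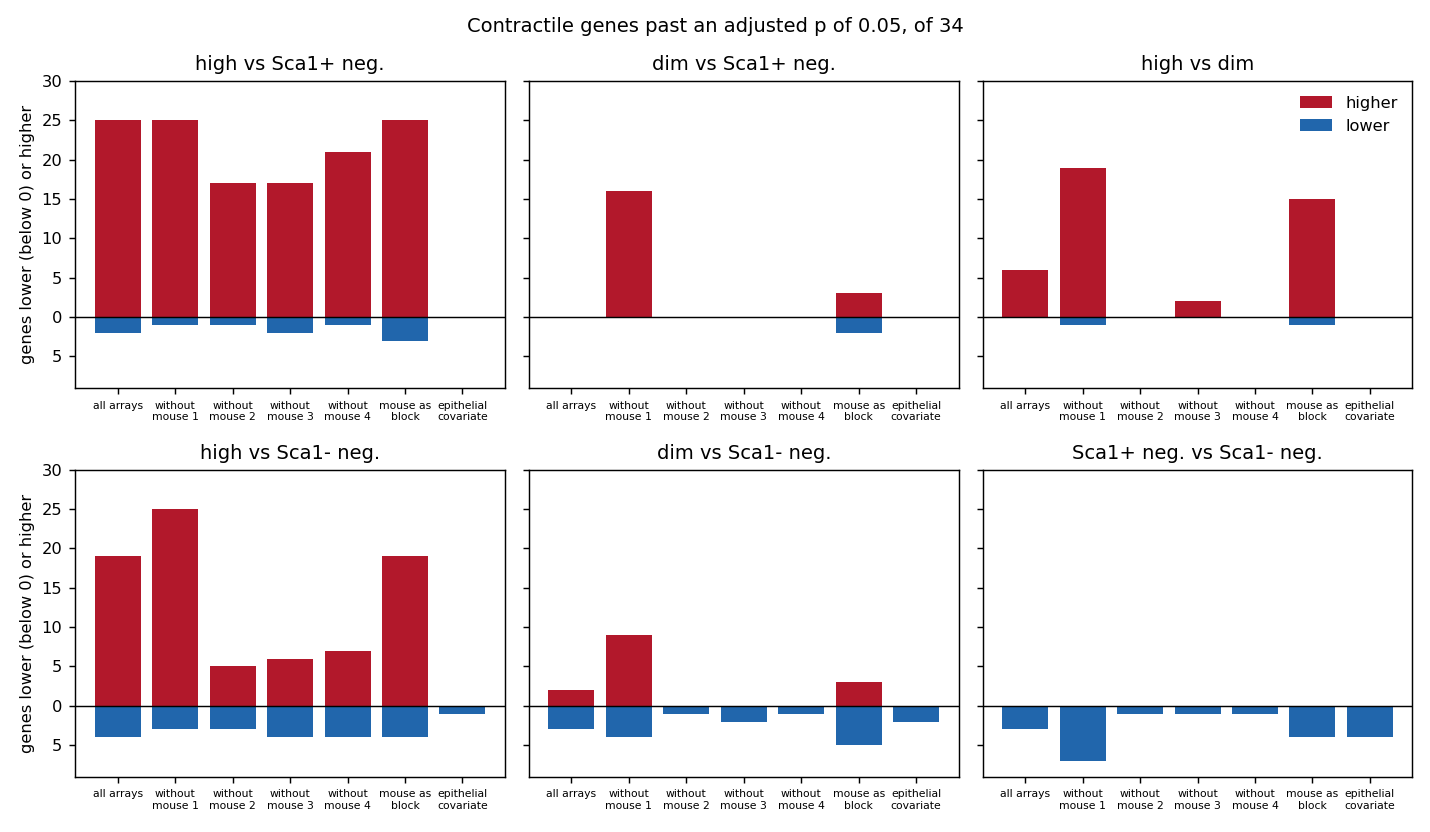
Number of the 34 contractile genes that rose or fell (adjusted p under 0.05) in each comparison with all arrays, without each mouse, with the mouse as a block and with the epithelial mean as a covariate. In reporter-dim against Sca1+ reporter-negative cells the count is 0 with all arrays and 16 without mouse 1, and in reporter-high against Sca1+ reporter-negative cells it is 25 higher and 2 lower with all arrays.

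The third question was what Sca1 separated among unlabelled cells. In Sca1+ against Sca1- reporter-negative cells 0 of the 34 genes rose and 3 fell by limma, Pcp4, Actg2 and Itga8; at an unadjusted p under 0.05, 0 were higher and 9 lower, against 6.19% and 5.54% of all genes. At the adjusted threshold 1.22% of all genes rose and 1.23% fell, together 2.45%. The median difference was -0.21, against 0.00 for all genes. Arrays were separate for 2 genes, Pcp4 and Actg2, both lower in Sca1+ cells, while 2.7% of all genes lay wholly higher and 2.76% wholly lower.

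Pcp4 was high in Sca1- cells alone, and it is given for each array because of its values. It had 620, 580, 571 and 521 in Sca1+ reporter-negative cells, against 7516, 1882, 1752 and 2562 in Sca1- reporter-negative cells, a difference of -2.30 ± 0.32 (adjusted p = 0.000747). All reporter-high (611, 524, 574 and 545) and reporter-dim arrays (434, 534, 563 and 536) lay below every Sca1- array too, and reporter-high and reporter-dim cells differed from Sca1- cells by -2.33 ± 0.32 and -2.46 ± 0.32. Actg2 had 8141, 3511, 2724 and 3007 in Sca1- cells, and Sca1+ reporter-negative cells, with the values above, differed by -1.81 ± 0.44 (adjusted p = 0.0409). Itga8 had 1016, 627, 564 and 969 in Sca1- cells, and Sca1+ reporter-negative cells differed by -1.29 ± 0.29 (adjusted p = 0.0282). For Itga8 the groups overlapped through the Sca1+ array of mouse 1. Acta2 had 25020, 13320, 11775 and 9953 in Sca1- cells, and Myh11 had 48464, 23790, 20109 and 19859. Sca1+ reporter-negative cells differed by -0.44 ± 0.31 for Acta2 (adjusted p = 0.708) and by -1.20 ± 0.32 for Myh11 (adjusted p = 0.0642).

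The count of 3 moved with single arrays. It was 7, all lower, without mouse 1, where 2.37% of all genes rose and 1.12% fell, and it was 5, all lower, without the Sca1+ array of mouse 1, where 1.04% of all genes fell. It was 1 without mouse 2, 3 or 4, without the Sca1+ array of mouse 2, 3 or 4, or with the Sca1- array of mouse 4 left out, and in those fits 0.409% to 0.883% of all genes fell. With the Sca1- array of mouse 1 left out it was 1 higher and 2 lower, against 3.18% and 1.43% of all genes. Markers of other contractile or electrically active cells differed between the same populations. Of 6 genes of interstitial cells of Cajal, the pacemaker cells of gut muscle, 5 fell in Sca1+ against Sca1- reporter-negative cells, with Kit at 545 ± 118 in Sca1+ and 3821 ± 1221 in Sca1- cells. Of 9 pericyte genes 2 fell, Rgs5 at 7706 ± 3025 in Sca1+ and 33744 ± 9500 in Sca1- cells, and Heyl. The mean log2 signal of the pericyte genes ranged from 9.88 to 10.37 in Sca1+ and from 10.52 to 11.32 in Sca1- reporter-negative cells, and 0 of the 9 were at array background in either. The part of these cells in the contractile signals was not tested.

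Reporter-high and reporter-dim cells were also set against Sca1- reporter-negative cells, from which they differ in both Sca1 and the reporter. In reporter-high cells 19 of the 34 genes rose and 4 fell, while 19.2% of all genes rose and 16.7% fell, together 35.9%. The 4 that fell were Acta1, Pcp4, Npnt and Itga7, and the fall of Npnt turned to a difference of 0.11 when arrays were scaled to their hybridization controls, a scaling that shifts the median of all genes by 0.42. Casq2 rose most, by 1.84 ± 0.31 (3996 ± 431 against 1148 ± 350), followed by Pgm5 at 1.27 ± 0.19. Actg2 and Myh11, which rose against Sca1+ reporter-negative cells, did not pass against Sca1- cells, with 1.04 ± 0.44 (adjusted p = 0.0779) and 0.44 ± 0.32 (adjusted p = 0.312). The other probe set of Myh11 did pass against Sca1- cells, with 0.39 ± 0.11 (adjusted p = 0.0102 over all probe sets). The arrays of 12 genes lay wholly above and of 3 wholly below those of Sca1- cells, against 16.3% and 15% of all genes. The count was 25 higher and 3 lower without mouse 1, against 18.7% and 17% of all genes, and 5 and 3 without mouse 2, against 12% and 10.4%. It was 6 and 4 without mouse 3, against 17.2% and 13.5%, and 7 and 4 without mouse 4, against 13.8% and 11.6%.

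In reporter-dim against Sca1- reporter-negative cells 2 genes rose, Casq2 and Pdlim7, and 3 fell, Pcp4, Itga8 and Itga7, while 7.96% of all genes rose and 5.89% fell, together 13.9%. Itga8 differed by -1.36 ± 0.29 (adjusted p = 0.00641) and Casq2 by 1.05 ± 0.31 (adjusted p = 0.035). For 1 gene the arrays of reporter-dim cells lay wholly above and for 6 wholly below those of Sca1- cells, Actg2, Myh11 and Cnn1 among the 6, against 7.51% and 5.86% of all genes. With the mouse as a block 3 rose and 5 fell, against 10.7% and 11.3% of all genes. The count was 9 higher and 4 lower without mouse 1, against 10.1% and 8.43% of all genes, and 6 and 4 without its Sca1- array, against 11.6% and 12%. It was 0 and 1 without mouse 2, against 2.04% and 1.56%, or mouse 4, against 2.86% and 1.75%, and 0 and 2 without mouse 3, against 4.81% and 4.13%. It was 1 and 2 with mouse 2 lacking its reporter-dim array, against 5.53% and 3.28%, or mouse 3 its Sca1- array, against 5.66% and 3.87%. The comparisons share arrays, so their results are not independent of one another.

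Acta1 is a gene of skeletal muscle, so other skeletal muscle genes were read beside it. Its signals in Sca1- reporter-negative cells were 1060, 2677, 3422 and 2497, and Sca1+ reporter-negative cells differed from them by 0.01 ± 0.38 (adjusted p = 0.997). Of 13 skeletal muscle genes, among them Myh1, Myh2, Myh4 and Mylpf, 0 passed in either direction in reporter-high against Sca1+ reporter-negative cells by limma. Their median difference was -0.07, and 5 of the 13 were at array background in Sca1+ reporter-negative cells. Actc1, Des, Ckm, Srf and Myocd in Sca1- cells complete the values by array. Actc1 had 608, 398, 360 and 249, Des 669, 460, 442 and 478, and Ckm 320, 403, 407 and 349. Srf had 5439, 6764, 8063 and 6285, and Myocd 485, 432, 354 and 419. Mouse 1 was highest for Actc1, Des and Myocd.

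Gene groups around the contractile apparatus were counted in reporter-high against Sca1+ reporter-negative cells, where 17% of all genes rose and 13.9% fell. Of 20 genes for the excitation of smooth muscle 13 rose and 0 fell, with a median of 0.58. Set against Sca1- reporter-negative cells, 3 of the 20 rose and 3 fell in reporter-high cells, with a median of 0.09. There 19.2% of all genes rose and 16.7% fell. Among the 13, Kcnmb1, the beta subunit of the large calcium-activated potassium channel, averaged 1646 ± 762 in reporter-high and 482 ± 153 in Sca1+ reporter-negative cells, a difference of 1.73 ± 0.31. Jph2, which holds the sarcoplasmic reticulum close to the membrane, averaged 5580 ± 472 and 2514 ± 460, and Dtna, of the dystrophin complex, 1509 ± 328 and 728 ± 103 in the same populations. The same 3 genes were those of this group that also rose in reporter-high against reporter-dim cells, where Kcnmb1 averaged 565 ± 101, Jph2 3356 ± 193 and Dtna 831 ± 143 in reporter-dim cells. In that comparison 0.485% of all genes rose and 0.93% fell, and 0% passed without mouse 2 or without mouse 4. Of 27 further actomyosin and adhesion genes 13 rose against Sca1+ reporter-negative cells, with caveolin 1 (Cav1) at 1.23 and supervillin (Svil), which links actin to the membrane, at 0.94. In the same comparison 2 fell, cytoplasmic gamma actin (Actg1) at -0.45 and Sorbs2 at -1.73.

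Other cell types were read in the same comparison. Of 9 pericyte genes 1 rose (Pdgfrb), with Rgs5 at 8045 ± 1222 in reporter-high and 7706 ± 3025 in Sca1+ reporter-negative cells. Of 6 genes of interstitial cells of Cajal 3 fell. Of 9 fibroblast genes 4 rose (Vim, Pdgfra, Pdpn and Thy1) and 0 fell. Of 12 endothelial genes 1 rose and 9 fell, of 9 leukocyte genes 0 rose and 3 fell, of 8 mesothelial genes 0 rose and 3 fell, and among 9 genes of glia and neurons there was 1 rise and 1 fall. In reporter-high cells 4 of the mesothelial, 2 of the leukocyte and 2 of the glia and neuron genes were at array background. The counts in Sca1+ reporter-negative cells were 4, 2 and 3. The part of these other cell types in the contractile differences was not tested. In Sca1+ against Sca1- reporter-negative cells 5 of the 20 excitation genes fell, Dtna, Gucy1a1, Gucy1b1, Atp2a2 and Dmd, and 0 rose, while 1.22% of all genes rose and 1.23% fell.

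**Figure D4:**
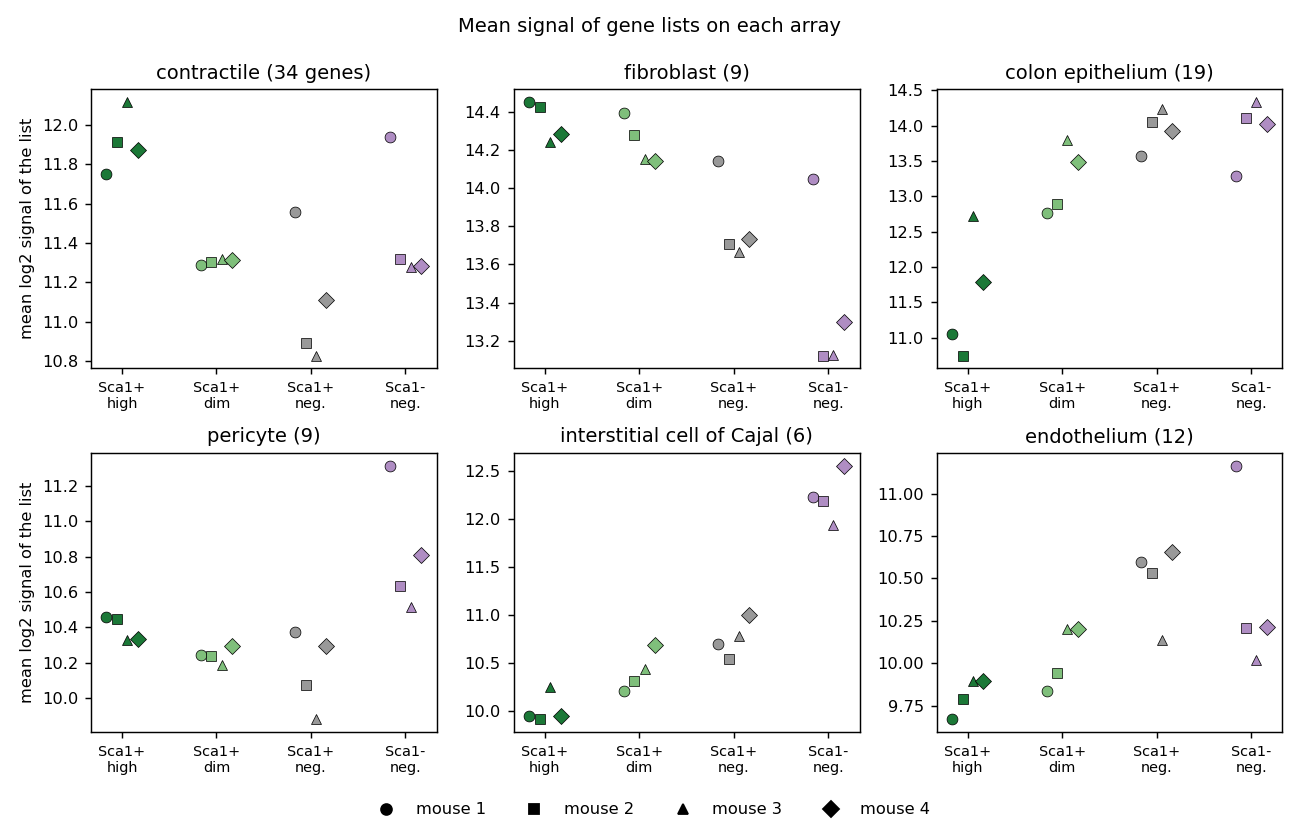
Mean log2 signal of 6 gene lists on each of 16 arrays, by population, with symbols for the 4 mice. The contractile genes lie between 11.75 and 12.12 in reporter-high cells and between 11.29 and 11.32 in reporter-dim cells, while the epithelial genes average 11.58 in reporter-high and 13.95 in Sca1+ reporter-negative cells.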

How the data were processed

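Gene expression was measured in 4 sorted populations from each of 4 mice on 16 Affymetrix arrays (3′ amplification of 2 ng of RNA). The submitters' processing notes name Affymetrix Expression Console 1.1; how signals were summarized, background-corrected and normalized is not given in the sources used here. Each deposited value is a score: the authors' file holds each of 45141 probe sets scaled so that its 16 values have mean 0 and SD 1. Tests had been planned on log2 signals, and whole-number signals turned out to underlie the scores once a log was taken. The signals were recovered for all 45141 probe sets by searching for the whole numbers that give the deposited scores (within 1e-09), tested on 1000 simulated probe sets. They ran from 58 to 155937.

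Probe sets were named by the platform's table: 28898 had 1 gene, 551 several and 15588 none, and 104 were controls. Each gene was read at its probe set with the highest mean. Probe sets for several transcripts of related genes can mix them. Log2 signals of 17097 genes were fitted with limma 3.58.1 in R 4.3.3, with all 16 arrays, 1 mean per population and no block, two-sided, with Benjamini-Hochberg adjustment over all genes and a threshold of 0.05. A simulated data set served to test the fit. Labels tie the arrays to mice. Deviations from population means correlated at 0.265 on average within a mouse (-0.08 to 0.52 per mouse) and at -0.09 between mice, so values with the mouse as a block are given where they move a count by over 1.5 times. SDs cover the 4 arrays of a population. SEs come from the fit, which pools the spread of all populations in it and does not take the shared mice into account.

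Contractile genes and comparison lists were chosen with earlier results of these data known. One of those lists is not reported here. Values by array are given for genes past the threshold in reporter-high against reporter-dim cells, for the 5 largest further changes in reporter-high against unlabelled Sca1+ cells, and for Acta2, Des, Myocd, Srf, Acta1, Actc1 and Ckm; Pcp4 was added after its values were seen. Further settings were another choice of probe set, a filter on dim genes, quantile normalization, scaling to hybridization controls, the mouse as a block, fewer arrays and an epithelial covariate. Promoter windows are from RefSeq (GRCm38.p6). The ratio of 3′ to 5′ signal of Actb was 1.24 ± 0.03 in reporter-high and 1.16 ± 0.07 in reporter-dim cells, and 1.11 ± 0.01 and 1.11 ± 0.05 in the Sca1+ and Sca1- cells without reporter. That of Gapdh was 0.997 ± 0.0129 in reporter-high and 1.02 ± 0.014 in reporter-dim cells, and 0.954 ± 0.00816 and 0.917 ± 0.0166 in the Sca1+ and Sca1- cells without reporter. Their part in the differences was not tested.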

Additional observations from a re-analysis of the deposited data

Results flagged for a closer look

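In 12 of 136 sets of 4 arrays (34 genes in 4 populations) the highest or lowest array stood far from the other 3, by Dixon's test at the 95% level. That level stands for about 1 in 20 sets flagged by chance if the sets were independent. The 34 genes were read on the same arrays, so their flags can come together and the count cannot be judged against that rate. The share of sets flagged over all genes was not computed. Of the 12, 9 were arrays of mouse 1 from reporter-negative cells. In Sca1- reporter-negative cells of mouse 1 the signal was 19397 for Mylk (next 10982), 7535 for Cnn2 (next 5302), 7750 for Tpm2 (next 3476) and 30725 for Flna (next 16752). On the same array it was 18438 for Csrp1 (next 10904), 1407 for Pgm5 (next 849) and 3637 for Ppp1r14a (next 1834). In Sca1+ reporter-negative cells of mouse 1 it was 5877 for Tpm2 (next 2131) and 572 for Itga8 (next 274).

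The other 3 arrays belonged to Sca1+ reporter-positive cells. Srf had 7173 in reporter-high cells of mouse 3 (next 5599), and Casq2 had 2792 in reporter-dim cells of mouse 4 (next 2190). Itga7 was low in reporter-dim cells of mouse 2, at 501 (next 654).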

How the results depend on the processing

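With all 16 arrays, the number of the 34 contractile genes past the threshold was 27 in reporter-high against Sca1+ reporter-negative cells, 0 in reporter-dim against Sca1+ reporter-negative, 6 in reporter-high against reporter-dim, 3 in Sca1+ against Sca1- reporter-negative, 23 in reporter-high against Sca1- reporter-negative and 5 in reporter-dim against Sca1- reporter-negative cells. Leaving out 1 mouse or 1 array gave 18 to 27, 0 to 16, 0 to 20, 1 to 7, 8 to 28 and 1 to 13 in the same order. The share of all genes past the threshold moved too. It was 16% to 33.2%, 0.0585% to 9.01%, 0% to 4.87%, 0.778% to 4.61%, 22.4% to 40.1% and 3.59% to 23.5%, in that order. With the mouse as a block (replicate block) the totals that moved by over 1.5 times were 5 in reporter-dim against Sca1+ reporter-negative, 16 in reporter-high against reporter-dim and 8 in reporter-dim against Sca1- reporter-negative cells. In the same order 14%, 7.49% and 22% of all genes passed. With the epithelial mean as a covariate the totals were 0 in reporter-high against Sca1+ reporter-negative and against reporter-dim, 1 in reporter-high and 2 in reporter-dim against Sca1- reporter-negative cells. In the same order 0.00585%, 0%, 1.19% and 8.16% of all genes passed. Scaling to hybridization controls gave 2 in reporter-dim against Sca1+ reporter-negative and 28 in reporter-high against reporter-dim cells. There it shifts the median of all genes by 0.06 and 0.33, and 3.35% and 41.9% of all genes passed. In reporter-high against Sca1- cells it gave 28 higher and 2 lower, while 66.2% of all genes rose and 5.57% fell. In reporter-dim against Sca1- cells it gave 4 higher and 2 lower, while 10.1% of all genes rose and 1.86% fell. Without this scaling these counts were 19 and 4, and 2 and 3. With only the 8 arrays compared, totals were 20 in reporter-high against reporter-dim, 1 in Sca1+ against Sca1- reporter-negative and 3 in reporter-dim against Sca1- reporter-negative cells, where 2.87%, 0.678% and 7.4% of all genes passed. Without the reporter-negative arrays of mouse 1, chosen after seeing the data, totals were 18 in reporter-dim against Sca1+ reporter-negative, 22 in reporter-high against reporter-dim, 7 in Sca1+ against Sca1- and 15 in reporter-dim against Sca1- reporter-negative cells, where 16.5%, 7.54%, 3.81% and 25% of all genes passed. The covariate turned the direction of Acta1 to 0.081 and Cald1 to -0.20 in reporter-high against Sca1+ reporter-negative cells. Against Sca1- cells it turned Acta1 to 0.0857, Cnn2 to -0.0087, Synm to -0.23 and Cald1 to -0.18. Scaling to hybridization controls turned Itga7 to 0.0022 in reporter-high against Sca1+ reporter-negative and Npnt to 0.11 against Sca1- cells. The cause of these changes was not tested. Of the 64 calls of single genes, all 64 kept direction and call with the block, with quantile normalization, with the filter on dim genes and with all probe sets fitted, 61 with the mean over probe sets, 60 with the hybridization scaling, 57 with only the 2 populations compared and 6 with the epithelial covariate, where 52 missed the threshold and 6 turned direction. Leaving out a mouse or an array, 1096 of 1280 kept both and 184 missed the threshold. Signals near the nonspecific controls limit what can be read for Des, Ckm, Npnt, Myocd, Actc1 and Itga8.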

Other observations

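Genes with several probe sets gave a check within the array. Of the 69 probe sets of contractile genes 42 rose and 2 fell in reporter-high against Sca1+ reporter-negative cells, while 29.6% of 28898 probe sets passed, and no gene had probe sets past the threshold in both directions. For 3 genes that rose, another probe set had the opposite sign without passing: Tpm1 at -0.39, Actn1 at -0.14 and Ppp1r12b at -0.08. In reporter-high against reporter-dim cells 10 of the 69 rose and 0 fell by limma, while 1.22% of all probe sets passed. Those 10 were the probe sets of the 6 genes that rose and 1 other each of Actn1, Itga8, Acta2 and Tpm1, so Acta2 and Tpm1 passed there only at a probe set other than the brightest. The same held for Synpo2 at 0.62 in reporter-high against Sca1+ reporter-negative cells, for Myh11 at 0.39 and Vcl at 0.41 in reporter-high against Sca1- cells, and for Actn1 at -0.31 and Ldb3 at -0.27 in reporter-dim against Sca1- cells.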
